A study of Triticum aestivum with 15 samples.

Results

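The hard red winter wheat cultivars TAM112 and TAM111 were compared in flag leaves of well-watered (wet) plants. The comparison used every wet library of the series, which made 7 of its 15 RNA-seq libraries. Of TAM112 there were 2 libraries at heading (HD, 79 days after transplanting) and 2 at grain filling (GF, 100 days after transplanting). Of TAM111 there was 1 library at HD and there were 2 at GF. Each library held RNA of flag leaves from the main tillers of 4 greenhouse plants, pooled before extraction, so a replicate is a pool and not a plant. The cultivars were harvested on the same days after transplanting, so a difference in how far each had developed cannot be told apart from other differences between them. TAM112 carries a rye segment in place of the short arm of wheat chromosome 1A, and the first 200 Mb of 1A were left out for that reason.

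Bread wheat is a hexaploid with A, B and D subgenomes, so most of its genes have a related copy on each. Cultivars can differ in which genes they hold, in the letters of the genes they share and in how strongly they use them, and genes for disease resistance are known to be among the most variable in this respect. Such resistance genes often encode intracellular receptors with nucleotide-binding and leucine-rich repeat domains, which detect products of pathogens, and receptor kinases, which do so at the cell surface.

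Levels were FPKM, a fragment count scaled to transcript length and to all mapped fragments, summed over the entries that fell on each of the 122017 loci of the assembled catalogue. Of these, 110167 carried the identifier of a reference gene, and 36520 of them reached 1 FPKM in 2 or more of the wet libraries. After the first 200 Mb of 1A (339 loci) and loci whose entries could not be told from those of a neighbour (406 loci) were left out, 35775 loci were tested. A locus just inside the filter, L_081412, had a second-highest value of 1.0 FPKM, and L_051703 with 0.9999 FPKM was just outside it. On 1A, L_002183 was the last locus left out and L_002185 the first one kept. Differences are TAM112 minus TAM111 on the log2(FPKM + 1) scale, with stage as a block, and a locus was called at a Benjamini-Hochberg adjusted p below 0.05 and a difference of at least 1 (limma). This scale understates the differences of weakly expressed loci.

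The wet libraries each gave between 29743 and 30777 tested loci with an FPKM of at least 1, and 6.23% to 26.1% of the FPKM was outside the loci. Of the 6 loci with green leaf products (chlorophyll a-b binding, photosystem II 10 kDa and Rubisco activase proteins), 4 were at 1 FPKM or more in all 7 libraries, and their sum was between 87.29 and 192.2 FPKM in TAM111 and between 37.2 and 336.5 FPKM in TAM112. The 3 loci taken by product name as markers of flowers or pollen summed to between 1.01 and 2.45 FPKM in TAM111 and to at most 0.34 FPKM in TAM112. Whether their products are limited to flowers or pollen was not tested. The highest of these 3 was the major pollen allergen Car b 1-like locus L_076059, which had 1.01, 2.28 and 2.19 FPKM in TAM111 and was listed at 0 in all 4 TAM112 libraries. The part that these markers may have in the cultivar difference was not tested. In RNA of whole leaves, fewer cells of a type and less RNA per cell cannot be told apart.

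One library stood apart from its label. In the dry GF libraries, which the comparison did not use, 176 tested loci were at 1 FPKM or more in both TAM111 libraries and at most at 0.1 FPKM in both TAM112 libraries, and 164 loci showed the opposite pattern. The library labelled TAM111 GF replicate 1 had 63.6% of the TAM111 loci and 67.1% of the TAM112 loci at 1 FPKM or more. In the other TAM111 wet libraries these shares were 85.2% (GF) and 82.4% (HD) for the TAM111 loci, and 19.5% (GF) and 23.8% (HD) for the TAM112 loci. Relative to the dry GF libraries of the cultivar that had them, the median level in replicate 1 was 43.5% at the TAM111 loci and 37.3% at the TAM112 loci. It was thus the only wet library in which both sets had a median above 0. At the 334 loci in the first 200 Mb of 1A the median log2(FPKM + 1) was 1.76 in this library, 2.45 (GF) and 2.32 (HD) in the other TAM111 libraries and between 0.415 and 0.545 in TAM112. What this library holds was not tested, and results are given with it, as labelled, and without it.

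**Figure D1:**
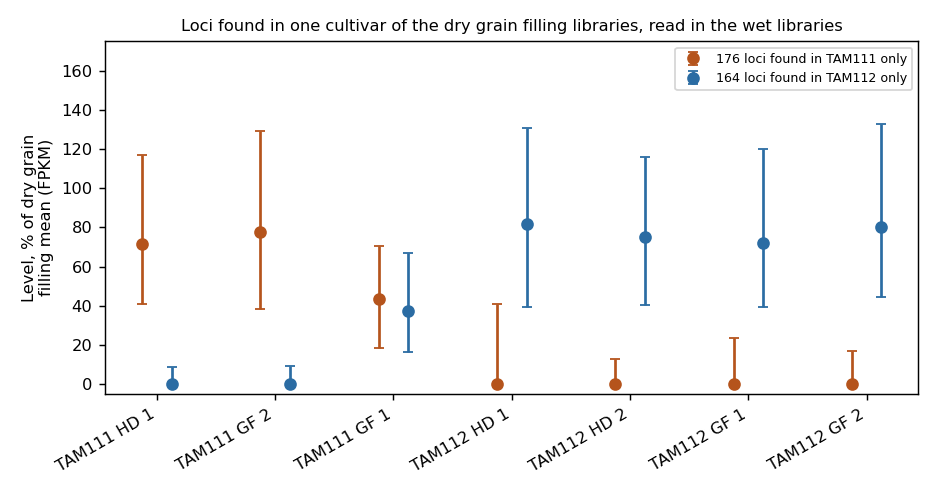
Level of loci found in 1 cultivar of the dry GF libraries, read in the 7 wet libraries. Points are medians over loci and bars run from the lower to the upper quartile, as percent of the mean FPKM in the dry GF libraries of the cultivar that had them. The library labelled TAM111 GF replicate 1 has medians of 43.5% and 37.3%, while each other library has 1 of its medians at 0.

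With all 7 libraries, TAM112 differed from TAM111 mainly by loci that were lower in it. Of the 35775 loci, 156 (0.436%) were called, 142 of them lower in TAM112 (0.397%) and 14 higher (0.0391%). At an unadjusted p below 0.05 there were 1931 lower (5.4%) and 1268 higher loci (3.54%). The median difference of all loci tested was −0.03, that of the lower called loci −2.27 and that of the higher called loci 2.73. Without TAM111 GF replicate 1, 369 loci (1.03%) were called, 232 lower and 137 higher in TAM112, so that the number of higher loci moved most. Without any 1 of the other 6 libraries the calls in both directions together were between 11 (TAM111 HD) and 55 (TAM112 HD replicate 1). Of the original calls, 132 lower and 11 higher loci were also called without it. The 137 higher loci had a median of 3.99 FPKM in the library left out and of 0.0 FPKM in each of the other TAM111 libraries, against a median of 7.96 FPKM for the mean of TAM112. Loci called higher only without that library tend to be those where it lay above the other TAM111 libraries, so these medians follow in part from the choice.

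Most of the lower loci were near or at 0 in TAM112. Of the 142, 52 were listed at 0 in all 4 TAM112 libraries and 100 were at most at 1 FPKM in all 4, whereas 21 were at 1 FPKM or more in all 4. Their median level, as the mean of the TAM111 libraries, was 6.58 FPKM. Of the 14 higher loci, 5 were listed at 0 in all 3 TAM111 libraries and 4 were at 1 FPKM or more in all 3. The values of the cultivars did not overlap at any of the 156 called loci, which they also did not at 2890 of all loci tested (8.08%). Reads of both cultivars were aligned to 1 reference genome, and whether a value of 0 comes from an absent gene, from a gene whose letters differ or from a silent gene was not tested.

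Gene products were known for 502 of the tested loci, from the study's own tables of loci that responded to the dry treatment, and these loci are therefore no random draw. That choice drew on the wet libraries of the same study, so wet values helped to select the loci. Their median difference was −0.15, against −0.03 for all loci, and 8 of them (1.59%) were called, all lower in TAM112. Leaving out 1 library at a time gave 1 to 25 such loci.

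Of these 8 loci, 4 belong to defence. L_111303 (TraesCS7B01G459600, chromosome 7B, part 2, 263508762 to 263526409 of IWGSC RefSeq v1.0) carries the product disease resistance protein RF9, an intracellular receptor of the nucleotide-binding class. It had 18.7 and 21.9 FPKM at GF and 14.8 FPKM at HD in TAM111, and between 0.0 and 0.0535 FPKM in TAM112. The cultivars were far apart at both stages, by −4.22 ± 0.18 (SE) with an adjusted p of 0.00177. L_120050 (TraesCSU01G177000, on the unplaced sequence, 266779615 to 266786846) encodes a protein like RPM1, a receptor that in Arabidopsis detects bacterial effectors. Unlike the former it was expressed in both cultivars, at 73.8, 101 and 108 FPKM in TAM111 and at 21.7, 16.3, 9.8 and 10.6 FPKM in TAM112, a difference of −2.60 ± 0.29 (adjusted p = 0.0223).

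L_006321 (TraesCS1B01G004100, chromosome 1B, part 1, 2354576 to 2357674) carries the product SnTox1 sensitivity protein. In wheat this is a wall-associated kinase through which a toxin of the fungus Parastagonospora nodorum causes susceptibility. It was at 6.7, 13.7 and 13.5 FPKM in TAM111 and at 0.653 and 1.1 FPKM (GF) and 0.206 and 0.0 FPKM (HD) in TAM112. Its lowest TAM111 value was that of GF replicate 1, and the difference was −3.0 ± 0.35 with that library (adjusted p = 0.0255) and −3.35 without it. L_023556 (TraesCS2B01G005400, chromosome 2B, part 1, 3406920 to 3474713) carries the product receptor kinase-like protein Xa21, named after a rice gene for resistance to bacterial blight. All 4 TAM112 libraries list it at 0, and TAM111 had 9.35 and 4.87 FPKM at GF and 6.76 FPKM at HD. The difference was −2.96 ± 0.23 (adjusted p = 0.0071).

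The other 4 loci have products of protein quality control, sterol synthesis, metal transport and vesicle transport. L_062816 (TraesCS4B01G393100, chromosome 4B, part 2, 216712019 to 216715128) encodes the chaperone ClpB1, which in Arabidopsis pulls apart protein aggregates after heat. It was among the more abundant called loci, at 58.6, 45.5 and 66.2 FPKM in TAM111 and at 11.7, 9.65, 11.9 and 11.2 FPKM in TAM112. The 4 TAM112 libraries lay close together, and the difference was −2.28 ± 0.18 (adjusted p = 0.0071). L_068038 (TraesCS5A01G004500 and TraesCS5A01G004600, chromosome 5A, part 1, 3167148 to 3177718) carries the product obtusifoliol 14-alpha demethylase, an enzyme of plant sterol synthesis. It had 7.26, 12.7 and 7.98 FPKM in TAM111 and at most 0.271 FPKM in TAM112, a difference of −3.12 ± 0.24 (adjusted p = 0.0064). The locus spans a pair of gene models, and with only the longest-overlapping entry of each library its difference was −1.27 and no longer called (adjusted p = 0.643).

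L_074104 (TraesCS5B01G009000, chromosome 5B, part 1, 9284415 to 9286096) encodes a protein like plant cadmium resistance 2, a membrane protein that in Arabidopsis takes part in metal transport. It had 14.2, 13.2 and 15.9 FPKM in TAM111 and 1.52, 3.23, 4.78 and 5.51 FPKM in TAM112. Here TAM112 was lowest at GF, and the difference was −1.89 ± 0.26 (adjusted p = 0.0444). L_111315 (TraesCS7B01G462900, chromosome 7B, part 2, 266235767 to 266243035) carries the product coatomer subunit beta'-3, part of the coat of vesicles that travel from the Golgi. It had 6.66, 4.07 and 4.27 FPKM in TAM111 and was listed at 0 in all TAM112 libraries, a difference of −2.54 ± 0.21 (adjusted p = 0.00848). Of the 8 loci, 7 were also called without TAM111 GF replicate 1, and L_074104 was not (difference −1.79, adjusted p = 0.0839).

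**Figure D2:**
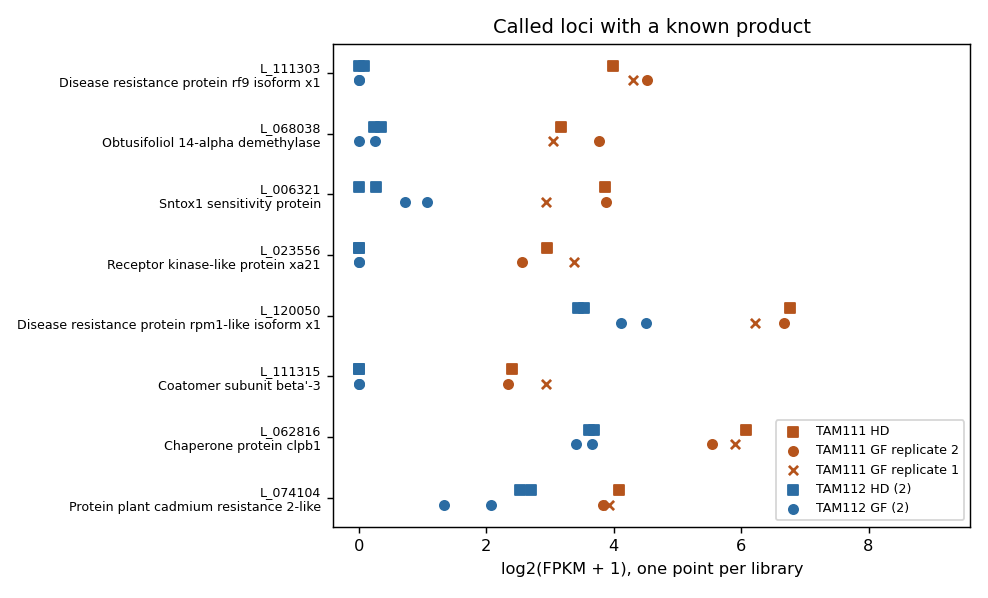
Levels of the 8 called loci with a known product in each wet library, on log2(FPKM + 1), ordered by the size of the difference. Squares are HD, circles and crosses GF, and the cross is the library labelled TAM111 GF replicate 1. In each row the 3 TAM111 points lie to the right of the 4 TAM112 points.

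Without TAM111 GF replicate 1, 25 loci with a product were called, 13 lower and 12 higher in TAM112. The loci named from this fit were chosen after their values were seen. Where a locus was called only without that library, the choice favours a value of that library between the cultivars. The 12 higher loci include 3 with resistance products and 2 receptor kinases. L_015345 (disease resistance protein At1g50180) was at 15.3, 15.1, 11.6 and 13.7 FPKM in TAM112, at 7.61 FPKM in the library left out and at 0.0 FPKM in both other TAM111 libraries. The library left out was thus between the cultivars, and the difference was 3.89 ± 0.20 without it (adjusted p = 0.00593) and 2.98 with it (adjusted p = 0.217). The same order was seen at L_114917, with a product named for stem rust resistance in barley, which had between 9.1 and 26 FPKM in TAM112, 5.21 FPKM in that library and 0.0 FPKM in the other TAM111 libraries. It was also seen at L_016928 (disease resistance protein RGA3), with between 5.18 and 9.31 FPKM in TAM112, 4.02 FPKM in that library and 0.337 and 0.239 FPKM in the others.

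Of the receptor kinases, a second Xa21-like locus, L_026411 (TraesCS2B01G499100), went the opposite way to L_023556. It was at 31.0, 32.2, 18.6 and 21.3 FPKM in TAM112, at 0.225 and 0.13 FPKM in TAM111 GF replicate 2 and HD, and at 15.6 FPKM in GF replicate 1. It thus had the largest difference among the receptor kinases tested, 3.40 ± 0.84 with all libraries, which was not called (adjusted p = 0.237), and 4.47 without that library (adjusted p = 0.00581). L_098477, like wall-associated receptor kinase 5, had between 11.5 and 31.7 FPKM in TAM112 and 0.186 and 0.429 FPKM in the same TAM111 libraries, with 11.1 FPKM in GF replicate 1.

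The remaining 7 higher loci have products of several roles. Their differences without that library were 3.50 for a linker histone H1 locus (L_027581), 2.78 for a glucan endo-1,3-beta-glucosidase 8 locus (L_060553), an enzyme that cleaves glucans of the cell wall, and 2.69 for a membrane protein with an SPX domain (L_034310), a domain that binds signals of phosphate status. They were 2.44 for a mitochondrial-like 26.2 kDa heat shock protein (L_113874), 2.01 for a nucleolin 2-like protein (L_026337), 2.0 for a glycosyl transferase (L_090169) and 1.92 for ubiquitin-conjugating enzyme E2 2 (L_005647). With all 7 libraries none of these 7 was called. In each the library left out lay well above the other TAM111 libraries, which follows largely from how the loci were chosen.

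Among the lower loci that this fit added was phytoene synthase 2 (L_075646), the first committed enzyme of carotenoid synthesis. It had 14 FPKM in TAM111 GF replicate 1, 28.4 and 32.0 FPKM in the other TAM111 libraries and between 4.53 and 7.04 FPKM in TAM112. Cyclin D3-1 (L_076320), a regulator of entry into the cell cycle, was at 1.93 FPKM in GF replicate 1, at 7.27 and 11.6 FPKM in the other TAM111 libraries and at most at 0.434 FPKM in TAM112. Oligopeptide transporter 4 (L_027049) was at 4.11 and 3.46 FPKM in the other TAM111 libraries and listed at 0 in GF replicate 1 and in all of TAM112. The others were aquaporin PIP2-6 (L_069802), the RPP13-like resistance locus L_102768 and the pollen allergen-like locus described above.

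By product group, the calls fell on few groups. Groups were formed from words in the product names, so a locus of the same kind under another name is not counted. The called loci L_068038, L_074104 and L_111315 fell in none of the groups. Over all loci tested, 0.436% were called, 5.4% were lower and 3.54% higher at an unadjusted p below 0.05, and 53.7% had a difference below 0. The group members were chosen for a response to the dry treatment, partly by wet values, so these shares are not matched to them. Of 21 loci for disease resistance and pathogenesis-related proteins, 3 were called lower and 0 higher, with a median difference of −0.27, and without TAM111 GF replicate 1 there were 4 lower and 3 higher. At an unadjusted p below 0.05, 4 of the 21 were lower and 5 higher. Of 83 receptor-like and wall-associated kinases, 1 was called lower and 0 higher (median −0.25), and without that library 1 was lower and 2 were higher. Of 20 heat shock proteins and other chaperones, 1 was called lower (median −0.15), and without that library 1 was lower and 1 higher. The 3 resistance loci were L_006321, L_111303 and L_120050, the kinase was L_023556 and the chaperone L_062816. By its product name the SnTox1 locus L_006321, described above as a wall-associated kinase, was counted with resistance and not with the kinases.

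In the other 11 groups 0 loci were called by limma with all libraries, and 29 were lower and 2 higher at an unadjusted p below 0.05. The 50 transporters had a median of −0.32, with 44 of them below 0. At an unadjusted p below 0.05, 15 were lower and 0 higher, where 5.4% and 3.54% of all loci were. The part that the choice of the loci has in this was not tested. The transporter farthest from 0 was L_030952, ABC transporter G family member 43, at 10.7, 9.55 and 14.5 FPKM in TAM111 and at 3.22, 1.83, 1.87 and 4.39 FPKM in TAM112. Its cultivars did not overlap, but the difference of −1.80 ± 0.28 missed the threshold (adjusted p = 0.0659). The 6 aquaporins, channels for water, had a median of −0.55 with all 6 below 0, and 1 passed an unadjusted p of 0.05. This was L_069802, PIP2-6 of the plasma membrane, at 1.34, 3.15 and 2.09 FPKM in TAM111 and listed at 0 in TAM112 (−1.63 ± 0.24, adjusted p = 0.0614), and it was called without TAM111 GF replicate 1.

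All 9 dehydrins and late embryogenesis abundant (LEA) proteins, which protect cells that lose water, also had differences below 0 (median −0.26). The largest was that of the 11 kDa LEA locus L_097631, with 23.6, 30.6 and 67.0 FPKM in TAM111 and 7.73, 22.4, 33.2 and 20.4 FPKM in TAM112 (−1.11 ± 0.38, adjusted p = 0.432), and its cultivars overlapped. For the 18 loci of abscisic acid synthesis and signalling, the hormone of water shortage, the median was −0.09. L_022126, an ABA-inducible protein kinase, was the farthest from 0 (−1.18 ± 0.45, adjusted p = 0.497). It was listed at 0 in both TAM112 GF libraries and had 8.94 and 9.08 FPKM in TAM112 at HD, against 8.34 FPKM in TAM111 at HD.

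The 9 loci of proline metabolism had a median of 0.01, between −0.51 and 0.53. A delta-1-pyrroline-5-carboxylate synthase locus for proline synthesis, L_111583, was the farthest from 0 (0.53 ± 0.72, adjusted p = 0.922). The 8 heat stress transcription factors had a median of 0.04. So did the list of 25 transcription factors, which shares 6 loci with them, and its 19 other loci (0.04). L_004474 (heat stress transcription factor A-2c) differed by 0.54 ± 0.48 (adjusted p = 0.853). L_067802, like NAC domain protein 72, a factor that responds to drought in Arabidopsis, was at 3.09, 2.17 and 3.09 FPKM in TAM111 and between 0.394 and 0.781 FPKM in TAM112. Its cultivars did not overlap, and its difference of −1.24 ± 0.20 missed the threshold (adjusted p = 0.0711).

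The medians were −0.08 for 26 redox loci, −0.10 for 12 loci of sugar and starch metabolism, −0.33 for 8 cytochrome P450 loci and −0.07 for 14 photosynthesis loci. Lactoylglutathione lyase (L_065512), which detoxifies methylglyoxal, differed by −0.99 ± 0.27 (adjusted p = 0.294). L_063775, like cytochrome P450 716B1, differed by 1.57 ± 0.39 (adjusted p = 0.232). The Rubisco activase locus L_064620, whose product keeps the carbon-fixing enzyme active, varied widely within cultivars. It had 59.9, 95.4 and 31.0 FPKM in TAM111 and 14.9, 104, 3.05 and 4.63 FPKM in TAM112 (−1.64 ± 0.71, adjusted p = 0.574).

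Of 4 loci also chosen for RT-qPCR, 3 were tested, and the fourth, the dehydrin locus L_100237, was listed at 0 in all 7 wet libraries. Sugar transport protein 13 (L_054218), a hexose transporter, was at 11.3, 13.0 and 16.1 FPKM in TAM111 and at 7.76, 8.07, 10.9 and 7.51 FPKM in TAM112. The cultivars did not overlap, yet the difference of −0.64 ± 0.19 missed the threshold (adjusted p = 0.329). Delta-1-pyrroline-5-carboxylate synthase 2 (L_049806) differed by 0.46 ± 0.30 (adjusted p = 0.769), and wall-associated receptor kinase 2 (L_074394) by −0.02 ± 0.35 (adjusted p = 0.994).

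Of the 156 called loci, 148 had no product in the sources used here, and several were summed from short entries of the assembly. L_090093 (TraesCS6A01G405600, chromosome 6A, part 2, 159072140 to 159073878) was even within each cultivar, between 107 and 115 FPKM in the 3 TAM111 libraries and at 18.2, 19.6, 19.0 and 15.2 FPKM in TAM112. It was 1 of the 2 most abundant loci lower in TAM112, by −2.54 ± 0.16 (adjusted p = 0.00448), and its value came from 1 entry in each library. L_024783 (TraesCS2B01G238700) had 9.89, 42.5 and 52.1 FPKM in TAM111 and L_109817 (TraesCS7B01G213500) had 14.5, 36.7 and 28.5 FPKM, and both were listed at 0 in all TAM112 libraries. Their differences were −4.96 ± 0.51 (adjusted p = 0.0171) and −4.71 ± 0.31 (adjusted p = 0.00499). With only the longest-overlapping entry they were −3.48 (adjusted p = 0.00587) and −1.93 (adjusted p = 0.0648). The bounds of their highest entries in TAM111 were as wide as counts of 3 to 7 and of 6 to 12 fragments would give.

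The lowest difference of all called loci, −7.66 ± 0.37 (adjusted p = 0.00247), was that of L_036716 (TraesCS3A01G016800, chromosome 3A, part 1, 10686645 to 10885595). Its sums were 247, 260 and 644 FPKM in TAM111 and at most 1.3 FPKM in TAM112. The confidence bounds of the entries behind these sums were as wide as counts of at most 9 fragments would give. With only the longest-overlapping entry the 2 TAM111 GF libraries had 1.25 and 1.14 FPKM, the HD library had 643 FPKM, and the difference was no longer called (−3.54, adjusted p = 0.61).

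Of the higher loci, L_015286 (TraesCS1D01G450600) had the largest difference, with 25.1, 66.9, 23.6 and 17.6 FPKM in TAM112 and 4.83, 0.37 and 0.0 FPKM in TAM111 (4.11 ± 0.56, adjusted p = 0.0453). With only the longest-overlapping entry it was 2.52 and no longer called (adjusted p = 0.174). L_038229 (TraesCS3A01G281300) was 198 bp long, with between 8.75 and 25.7 FPKM in TAM112 and 0 in TAM111 (4.07 ± 0.35, adjusted p = 0.00941). The bounds of its values were as wide as counts of at most 3 fragments would give. The 2 most abundant higher loci were L_035377 (TraesCS3A01G009300), at 327, 131, 149 and 104 FPKM in TAM112 and at 6.22, 11.7 and 10.6 FPKM in TAM111, and L_090928 (TraesCS6A01G394800), at 134, 139, 129 and 80.9 FPKM against 31.9, 32.1 and 23.0 FPKM. Their differences of 4.04 ± 0.42 (adjusted p = 0.0171) and 2.08 ± 0.20 (adjusted p = 0.0154) turned direction with only the longest-overlapping entry, to −0.94 and −0.38. Over all loci, that setting called 148, 15 higher and 133 lower, and 122 of them were shared with the 156.

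The called loci were unevenly placed along the genome. The A and B subgenomes each had 63 called loci, of 11600 (0.543%) and 11828 (0.533%) tested, and the D subgenome had 27 of 12046 (0.224%). Without TAM111 GF replicate 1 there were 123 (1.06%), 148 (1.25%) and 91 (0.755%). By chromosome, the share with all 7 libraries was highest on 7B, with 19 of 1540 loci (1.23%), 17 of them lower in TAM112, and limma called 0 of 1977 on 5D, where 135 had an unadjusted p below 0.05. Without TAM111 GF replicate 1 the order changed. Of the chromosomes, 6B (1.97%), 1D (1.92%) and 1B (1.85%) then had the highest shares, 7B had 1.56%, and the unplaced sequence had 2.33% of 301 loci. The number of higher loci went from 2 to 26 on 1D, from 2 to 16 on 1B and from 0 to 14 on 2B.

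**Figure D3:**
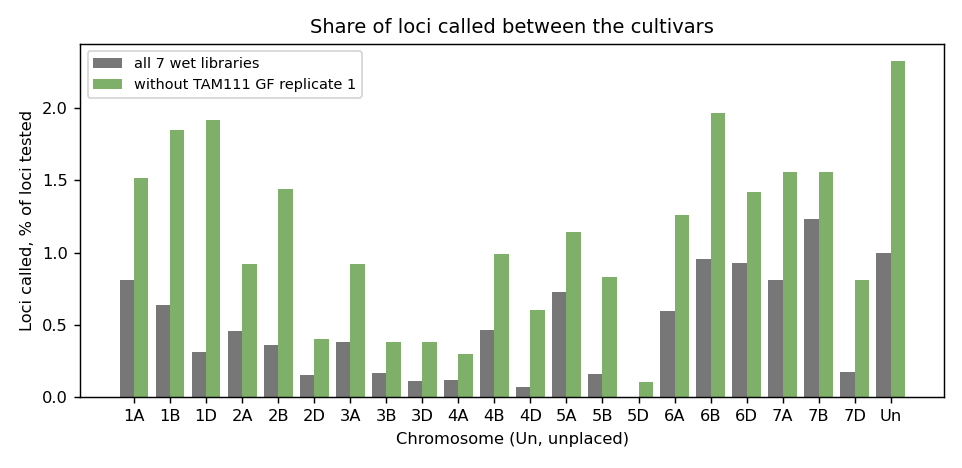
Loci called between the cultivars as percent of the loci tested on each chromosome, with all 7 wet libraries and without the library labelled TAM111 GF replicate 1. Without it the share is higher on each chromosome, and on 1D it goes from 0.31% to 1.92%.

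Of 289 intervals of 50 Mb with at least 20 loci tested, 81 held a called locus. The highest share was that of chromosome 7B, part 2, from 250 to 300 Mb, with 9 of 104 loci (8.65%), all lower in TAM112. This interval holds both L_111303 and L_111315 described above. It was followed by 1A, part 1, from 200 to 250 Mb, next to the part left out, with 3 of 44 loci (6.82%). Whether the rye segment of TAM112 reaches into this interval was not tested. There L_002186 (TraesCS1A01G134500, 201853701 to 201865442) had 2.96, 6.01 and 3.09 FPKM in TAM111 and was listed at 0 in TAM112 (−2.25 ± 0.25, adjusted p = 0.0223). The third was 6D, part 2, from 0 to 50 Mb, with 8 of 149 loci (5.37%). Its leading locus, L_100676 (TraesCS6D01G383300, 11905111 to 11909650), had 5.98, 7.78 and 7.46 FPKM in TAM111 and at most 0.619 FPKM in TAM112 (−2.60 ± 0.18, adjusted p = 0.00499).

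Some called loci also stood close together. Of the 156, 43 had another called locus within 1 Mb, and 4 runs held 3 or more. The same count for other sets of tested loci is not given, so closeness beyond the spacing of genes was not tested. Each run was drawn to begin and end at a called locus, so the shares and medians inside it follow in part from that choice. The largest run, on 6D, part 2, from 11287355 to 12350828, held 7 called loci of 15 tested, all lower in TAM112, with a median difference of −0.71 over the 15. Among the called loci of this run, L_100918 and L_100919 overlap in position, so they need not be independent. On 7A, part 1, from 2682795 to 3432630, 5 of 9 loci were called, all 9 had differences below 0, and their median was −1.93. The RPP13-like resistance locus L_102768, which was called without TAM111 GF replicate 1, lies in this run. On 6A, part 2, from 159072140 to 159892132, 4 of 13 loci were called, L_090093 among them. On 3B, part 1, from 51912042 to 52554743, the 3 loci tested were all called.

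The difference between the cultivars was then compared between stages. The 156 called loci were chosen by a fit over both stages that favours an even difference, so their agreement between the stages is a description. The median of the lower loci was −2.34 at HD and −2.20 at GF, and that of the higher loci 2.83 and 2.64. The interaction of cultivar and stage passed an adjusted p of 0.05 at 2 of 35775 loci (0.00559%, limma), with 1650 at an unadjusted p below 0.05. Only 1 library of TAM111 stands behind the HD difference. By GF alone, with 2 libraries a cultivar, limma called 0 loci, with 2189 at an unadjusted p below 0.05.

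The same loci were read in the 8 dry libraries, 4 of each cultivar, which share no sample with the wet ones. Of the 142 lower loci, 137 were also below 0 in dry leaves, with a median of −1.88, 113 of them by at least 1, and 70 were called. Of the 14 higher loci, 13 were above 0, with a median of 2.11, and 2 were called. Together 96.2% of the called loci had the same sign and 46.2% were called in dry leaves, where 56.0% of all loci had the same sign and 0.604% were called. Among the dry libraries, TAM111 HD replicate 1 also held both sets of cultivar loci, at medians of 35.3% and 37.2%. Without it, 495 loci were called in dry leaves (216 with it), 90 of the 142 lower and 5 of the 14 higher loci among them.

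**Figure D4:**
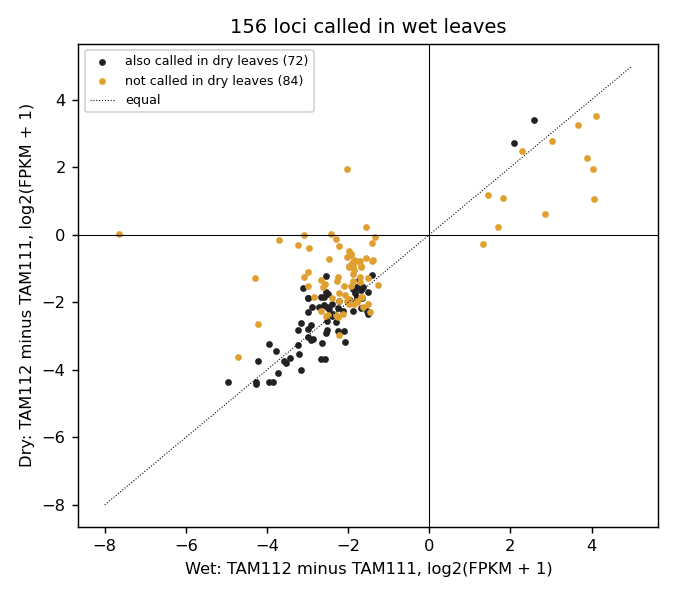
Cultivar difference in dry leaves (vertical axis) against that in wet leaves (horizontal axis) for the 156 loci called in wet leaves, both as TAM112 minus TAM111 on log2(FPKM + 1). Of the 156, 72 were called in dry leaves as well, and the dotted line marks equal differences.

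With both doubtful libraries left out, 1 of each treatment, 248 of the 35775 loci tested were called lower in dry leaves and 247 higher. Of the 232 lower and 137 higher loci of the wet comparison, 117 and 101 were called there with the same sign. The loci with a product varied in this respect. In dry leaves the SnTox1 locus L_006321 (−1.87, adjusted p = 0.00768), the RPM1-like locus L_120050 (−1.85, adjusted p = 0.00768), L_068038 (−1.58, adjusted p = 0.0154) and L_111315 (−1.23, adjusted p = 0.0391) were also called. L_111303 (−2.64, adjusted p = 0.0643) and ClpB1 (−1.37, adjusted p = 0.29) had large differences that missed the threshold. L_074104 differed by −0.92 (adjusted p = 0.244).

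A few loci were expressed almost only in wet leaves of TAM111. A test of the cultivar difference in wet against dry leaves over all 15 libraries was added after the data were seen. It passed at 17 of the 35775 loci tested (limma, adjusted p below 0.05), 4 of them among the 156. The 156 were chosen for a large difference in the same wet libraries, which favours their passing, so the 4 are a description. The Xa21-like locus L_023556, at 4.87 to 9.35 FPKM in wet TAM111, was between 0.0846 and 0.674 FPKM in dry TAM111 and at 0 in all TAM112 libraries. Its difference was lower in wet leaves by −2.55 (adjusted p = 0.0311). L_004921 (TraesCS1B01G006700) had 8.43, 10.4 and 6.3 FPKM in wet TAM111 and at most 0.137 FPKM in wet TAM112, and it was listed at 0 in all 8 dry libraries (−3.05, adjusted p = 0.000488). L_020901 (TraesCS2A01G421500) had 18.0, 9.08 and 25.7 FPKM in wet TAM111 and at most 0.273 FPKM in dry TAM111 (−3.63, adjusted p = 0.00955), and the remaining locus was L_036716, which rested on short entries.

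Loci found in 1 cultivar only, with an FPKM of at least 1 in each of its wet libraries and at most 0.1 in each wet library of the other, were counted last. There were 87 in TAM111, of which 58 were called, and 13 in TAM112, of which 5 were called. Without TAM111 GF replicate 1 there were 147 and 121, so the ratio between the cultivars was not the same with and without it. Leaving out any TAM111 library loosens the rule for both counts, and counts without another one are not given here.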

How the data were processed

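The authors trimmed reads with Trimmomatic 0.38, aligned them with TopHat2 and estimated FPKM for each library by itself with Cufflinks. They deposited 1 table of gene FPKM per library, with confidence bounds, and the merged catalogue, whose coordinates are those of IWGSC RefSeq v1.0 split into parts. Fragment counts were not given. Taking each bound as a square-root counting error, the wet libraries held 5.44 to 7.37 M fragments, an estimate that depends on the transcript lengths used. It is well below the average of filtered reads per sample that the paper reports, also if each fragment is a read pair. What makes up this gap was not tested, and fragment numbers read from the bounds may be too low. Fragments implied by the bounds cover counting error only.

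Entries were assigned to loci with bedtools 2.31.1 by reference name and then by overlap, without strand, and their FPKM summed. Genes with near-identical copies or on opposite strands are therefore uncertain. limma 3.58.1 (R 4.3.3) fitted stage and cultivar to log2(FPKM + 1) with a mean-variance trend, leaving 4 residual degrees of freedom. P-values measure the spread between these pools. An exact two-sided test of 3 against 4 libraries cannot go below p = 0.0571, so single values were not tested in that way. In simulated libraries of this comparison, 83 of 100 loci changed by 2 and 97 of 100 changed by 3 on the log2 scale were called among 35775, with 12 others. The changed loci were drawn only from loci above a set mean level. Whether 83 and 97 of 100 also hold for weaker loci, or for loci near 0 in 1 cultivar, was not tested. The part that a library with both sets of cultivar loci has in these counts was not tested either. Interval and run counts are descriptions.

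The members, lists and tests were chosen with earlier results of these data known. Named loci were the called ones with a product, the 3 highest and 3 lowest without one, the 2 most abundant in each direction, the one farthest from 0 in each product list, the leading one of each of 3 intervals, and the RT-qPCR loci. Alternatives were other pseudocounts, filters, scalings, blocks, library sets and loci. The authors' comparison columns were not used. No sequence is shown, since no genome of this build was used here.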

Additional observations from a re-analysis of the deposited data

Results flagged for a closer look

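The cultivar difference changed between stages at 2 loci by the interaction test (limma, adjusted p = 0.0389 for both). L_011343 (TraesCS1D01G182700) had 90.2 and 84.7 FPKM in TAM112 at GF and was listed at 0 in the other 5 wet libraries, and its difference was greater at GF than at HD by 6.47. L_105184 (TraesCS7A01G433600) had 16.3 and 20.6 FPKM in TAM112 at GF and 11.8 FPKM in TAM111 at HD, and was listed at 0 in the other wet libraries, a change by 7.95 between the stages. These loci are 117 bp and 216 bp long, and neither has a product in the sources used here. With 1 TAM111 library at HD, its value there has no replicate. No group had the 4 libraries needed to look for single outlying values.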

How the results depend on the processing

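The 156 called loci became 63 with a pseudocount of 5, 8 with an FPKM of at least 1 in all 7 libraries (2 higher, 6 lower), 387 in the fit to all 15 libraries (63 higher, 324 lower) and 381 with the first 200 Mb of 1A kept (38 higher, 343 lower). Of loci with a product, 1 was called with an FPKM of at least 1 in all 7 libraries, 22 with 15 libraries and 14 with 1A kept, against 8. With GF libraries alone, and with the replicate number as a block, limma called 0 loci and 0 loci with a product (2189 and 2959 loci at an unadjusted p below 0.05). The replicate numbers give only 1 pair in which both cultivars have both replicates, with a correlation of 0.076, so they were not taken to pair the samples. Leaving out each library in turn gave 11 to 369 calls, and 1 to 25 with a product. The count was 11 without TAM111 HD replicate 1, 54 without TAM111 GF replicate 2, 30 and 29 without TAM112 GF replicates 1 and 2, and 55 and 45 without TAM112 HD replicates 1 and 2, so each library moved it by more than 1.5 times. In dry leaves the count ranged from 35 to 495 around 216. Loci found only in TAM111 were 136, and only in TAM112 28, when 0.5 FPKM was allowed in the other cultivar, and 147 and 121 without TAM111 GF replicate 1. L_035377 and L_090928 turned to −0.94 and −0.38 with the longest-overlapping entry only, a setting added after the data were seen. All 156 loci kept their sign under pseudocounts of 0.1 and 5, median-ratio and quantile scaling, the replicate block, no stage block, no trend, GF alone and each library left out. The cultivars overlapped at none of the 156, which fixed the sign in advance for all of these but the 2 scalings. With the longest-overlapping entry only, 151 of the 156 kept their sign. The remaining settings (pseudocount of 0.1, no filter, both scalings, no trend, no stage block, shared entries kept, longest entry) gave 109 to 197 calls. Depth was only estimated, and 24 called loci had bounds as wide as under 10 fragments would give in every library of the higher cultivar.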

Other observations

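Of the 156 loci called in wet leaves, 6 had the opposite sign in dry leaves, or 0, and none of these was called there. L_003716 (TraesCS1A01G396500), with no product in the sources used here, was at 3.94, 2.35 and 3.1 FPKM in wet TAM111 and listed at 0 in wet TAM112. In dry leaves it was listed at 0 in all 4 TAM111 libraries and had 2.77, 13.0, 0.0 and 3.23 FPKM in TAM112. Its differences were −2.03 in wet and 1.95 in dry leaves, and the test of wet against dry gave an adjusted p of 0.136 (limma).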
